A study of Mus musculus with 4 samples.

Results

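Of the 21690 features in the deposited tables, 10 genes of the cadherin switch and of epithelial identity were chosen by symbol: Cdh1, Cdh2, Epcam, Krt8, Krt18, Krt19, Esrp1, Esrp2, Grhl2 and Ovol2. All 10 were found. They were followed in neural precursors grown from A2lox mouse embryonic stem cells, whose clonal derivatives carry a doxycycline-inducible knockdown of Geminin, a small nucleoprotein that restrains replication licensing. Before that the line was grown on a feeder layer of fibroblasts. It was differentiated as a monolayer in serum-free N2B27 medium until day 5. The knockdown group is 3 independent experiments given 500 ng doxycycline from day 3, here called knockdown libraries 1, 2 and 3, and the control is a single library of the same line with no doxycycline. No doxycycline-treated line lacking the knockdown was analysed here, so an effect of the drug and an effect of the knockdown cannot be told apart.

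Classical cadherins hold neighbouring cells together through their extracellular domains and are tied to actin by catenins. E-cadherin (Cdh1) is the cadherin of epithelia, of embryonic stem cells and of the epiblast, and N-cadherin (Cdh2) is that of the neural tube. The passage from the former to the latter accompanies the formation of neural tissue and is known as the cadherin switch. Simple epithelia also carry filaments of paired keratins, an epithelial splicing programme set by the Esrp proteins, and transcription factors such as Grhl2 and Ovol2 that sustain junction genes or repress mesenchymal ones.

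Levels are given as FPKM, which corrects fragment numbers for transcript length and for library size, so they can be compared between genes. Every table sets 1 knockdown library against the same control, and a gene is said to have fallen or risen when the authors' deposited tables carry a significance mark for it, in the same direction, in 2 tables or more. This is the criterion stated with the series. Each mark compares 1 library with 1 library, and the control has no replicate. Gmnn, the targeted gene (chromosome 13, 24843714 to 24853806, mm9), had 27.0, 65.9 and 27.9 FPKM in knockdown libraries 1, 2 and 3, and the control had 113. The level left was thus 24.0%, 58.4% and 24.7%, and in library 2 the authors' deposited table did not mark the fall (q-value 0.0722). Library 1 stood closer to the control than the others over all tested features: the median absolute log2 ratio was 0.13 there, against 0.20 and 0.19 in libraries 2 and 3. Relative sequencing depth was 1.00, 1.15 and 0.972 times that of the control.

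Of the 10 genes 6 fell: Cdh1, Epcam, Krt8, Krt18, Esrp1 and Grhl2. None rose. The background is 0.905% of the 14477 features that could be called lower and 1.98% called higher. All of the falls were marked in libraries 2 and 3 and none in library 1. Cdh2, Krt19, Esrp2 and Ovol2 were not called. Marks toward lower levels numbered 7 among the 10 genes in library 2, where 2.02% of tested features had one, and 6 in library 3, where 1.28% did. Library 1 had 0 marks among them in either direction, with 1.52% of features marked lower and 0.909% marked higher. In bulk RNA, fewer cells of an epithelial kind and less of these transcripts per cell cannot be told apart.

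**Figure D1:**
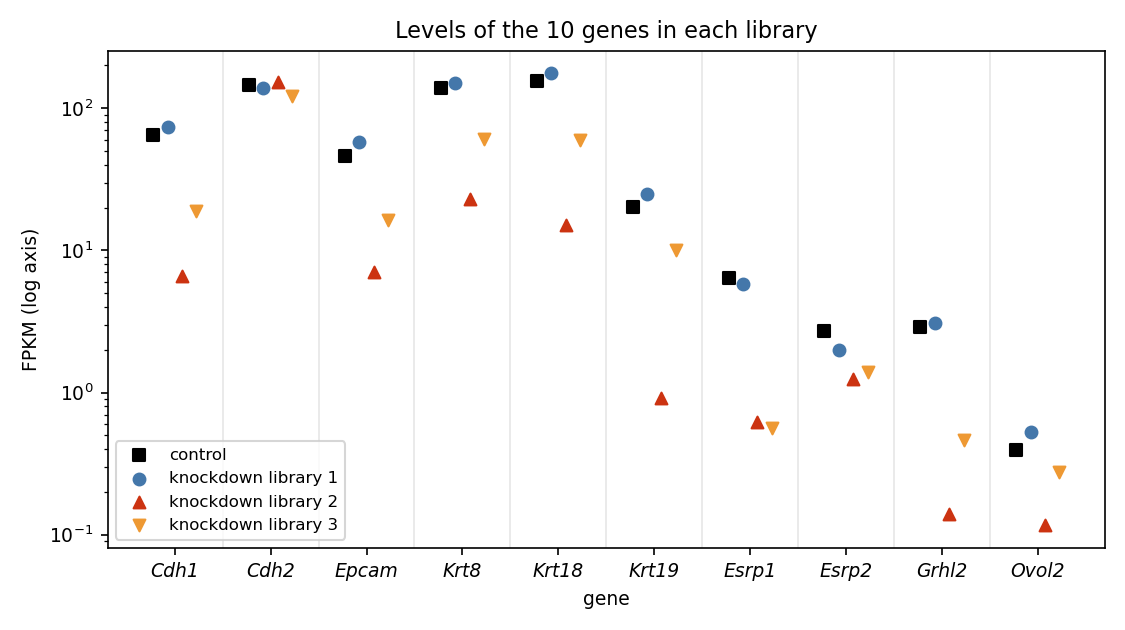
FPKM of the 10 genes on a log axis, with 1 point for each of the 4 libraries. Control and knockdown library 1 lie together for most genes, libraries 2 and 3 lie below them for every gene but Cdh2, and library 2 is the lowest of the 4 for 8 of the 10.

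Cdh1, which encodes E-cadherin, lies on chromosome 8 from 109127268 to 109194146 (mm9). It had 74.2, 6.63 and 18.8 FPKM in knockdown libraries 1, 2 and 3, and the control had 65.2. Library 1 was slightly above the control, while libraries 2 and 3 were far below both, so the knockdown group lay on either side of the control. The level left was 114%, 10.2% and 28.8%, with 95% intervals implied by the deposited Cuffdiff statistic of 101% to 128%, 6.84% to 15.1% and 21.4% to 38.8%. Those intervals cover the error modelled for a pair of libraries and not the spread between cultures. In limma, fitted across 11968 features, the mean log2 change of Cdh1 was -1.56 with a standard error of 1.28 (adjusted p = 0.999).

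Cdh2, which encodes N-cadherin, lies on chromosome 18 from 16747386 to 16967558. It had 139, 153 and 123 FPKM in knockdown libraries 1, 2 and 3, and the control had 145. The control fell inside the range of the knockdown libraries, whose mean was 138 ± 15.2 (SD, n = 3). The level relative to the control was 96.3%, 106% and 84.8%, and the widest of the 3 intervals, that of library 2, ran from 75.1% to 149%. Cdh2 was marked in no table, and limma gave a log2 change of -0.07 with a standard error of 0.16 (adjusted p = 0.999). The interval of library 3 ran from 61.8% to 116%, and changes within these bounds were not detectable.

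The ratio of the cadherins was lower in libraries 2 and 3, where Cdh1 was marked lower and Cdh2 was not marked in either direction. Cdh1 per Cdh2 was 0.451 in the control, 0.533 in library 1, 0.0433 in library 2 and 0.153 in library 3. N-cadherin transcripts already exceeded those of E-cadherin by 2.22 times in the control, and by 1.88, 23.1 and 6.52 times in libraries 1, 2 and 3. The summed level of both genes was 210 FPKM in the control and 213, 160 and 141 in the knockdown libraries. Cdh1 made up 31.1% of that sum in the control, 34.8% in library 1, 4.15% in library 2 and 13.3% in library 3.

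**Figure D2:**
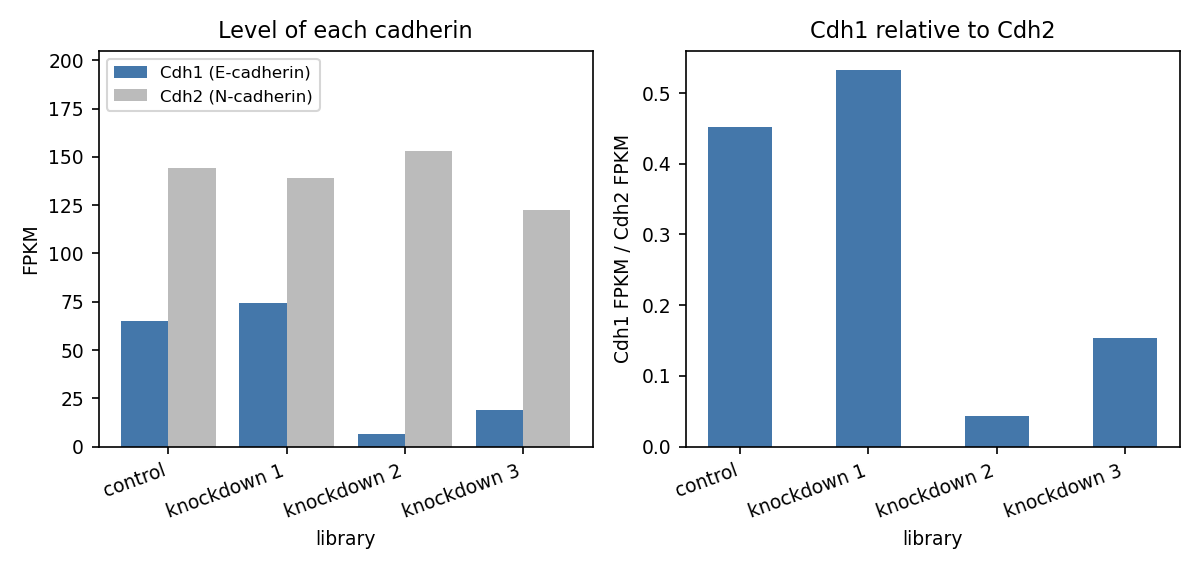
Left, FPKM of Cdh1 and Cdh2 in each of the 4 libraries. Right, Cdh1 FPKM divided by Cdh2 FPKM. Cdh2 stays between 123 and 153 FPKM in every library, while Cdh1 drops to 6.63 and 18.8 in knockdown libraries 2 and 3, and the ratio goes from 0.451 in the control to 0.0433 and 0.153.

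Epcam, an adhesion molecule of the epithelial cell surface that is also abundant on embryonic stem cells, lies on chromosome 17 from 88035319 to 88050467 (mm9). It had 58.2, 7.08 and 16.5 FPKM in knockdown libraries 1, 2 and 3, and the control had 46.3. The order of the libraries was that of Cdh1, with library 1 highest and library 2 lowest. The level left was 126%, 15.3% and 35.6%. In library 1 the interval of 109% to 145% excluded an unchanged level, although the deposited table did not mark the gene (q-value 0.0566). Epcam per Cdh1 was 0.709 in the control, and 0.785, 1.07 and 0.876 in libraries 1, 2 and 3.

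Krt8 and Krt18 encode the type II and type I keratins that pair in simple epithelia, and Krt19 is a further type I keratin. The 3 genes were among the more abundant of the 10, with 139, 155 and 20.2 FPKM in the control. Krt8 (chromosome 15, 101827142 to 101834773) had 150, 22.9 and 60.4 FPKM in libraries 1, 2 and 3. Krt18 (chromosome 15, 101858647 to 101862457) had 176, 15.1 and 59.7 FPKM. Both were near the control in library 1, intermediate in library 3 and lowest in library 2.

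Krt19 (chromosome 11, 100002126 to 100007233) had 24.9, 0.909 and 10.1 FPKM in libraries 1, 2 and 3. Its level left in library 2, 4.50%, was the smallest share kept by any of the 10 genes in any library, whereas in library 3 it kept 50.1% and was not marked (q-value 0.211 in the authors' deposited table). It was therefore not called. The summed level of the 3 keratins was 314 FPKM in the control and 350, 38.9 and 130 in libraries 1, 2 and 3. Within the pair, Krt8 per Krt18 was 0.897 in the control and 0.850, 1.51 and 1.01 in the knockdown libraries, so in library 2 less Krt18 than Krt8 was left. Krt19 per Krt18 was 0.130 in the control and 0.141, 0.0602 and 0.169 in libraries 1, 2 and 3.

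RefSeq start sites (GRCm38.p6, a later build than that of the tables) were listed for 4 of the 10 genes. Because Epcam, Krt8 and Krt18 fell in the same 2 libraries, the 250 bases upstream of their starts are shown, at chr17:87635729-87635978 on the plus strand, chr15:102004343-102004592 on the minus strand and chr15:102027966-102028215 on the plus strand. Capitals mark the E-box CAGGTG or its reverse complement CACCTG, the letters recognised by the Snail and Zeb repressors, and ACCGGT, the core of the Grainyhead site, which reads the same on both strands. The marked matches do not overlap.
Epcam: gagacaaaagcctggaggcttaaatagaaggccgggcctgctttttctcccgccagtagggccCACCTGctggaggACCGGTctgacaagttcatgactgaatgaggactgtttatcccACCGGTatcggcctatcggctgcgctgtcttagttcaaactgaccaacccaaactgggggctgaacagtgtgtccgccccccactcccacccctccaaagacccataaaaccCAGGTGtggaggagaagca
Krt8: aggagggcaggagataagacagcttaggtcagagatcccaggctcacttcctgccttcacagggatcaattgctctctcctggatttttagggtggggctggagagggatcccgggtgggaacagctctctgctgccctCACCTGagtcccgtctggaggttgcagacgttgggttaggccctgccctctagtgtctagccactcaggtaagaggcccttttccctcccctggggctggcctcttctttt
Krt18: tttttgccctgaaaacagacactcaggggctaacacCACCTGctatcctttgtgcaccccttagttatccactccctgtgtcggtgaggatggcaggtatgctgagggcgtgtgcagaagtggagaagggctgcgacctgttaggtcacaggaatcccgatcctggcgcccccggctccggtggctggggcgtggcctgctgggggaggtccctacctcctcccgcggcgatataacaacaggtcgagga

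The Epcam window held an E-box starting at -187 and another at -19 from the start site, and ACCGGT at -174 and -131. Krt8 had an E-box at -111 and Krt18 had one at -214, and neither held ACCGGT. The window of the remaining gene with a listed start site, not shown, held neither the E-box nor ACCGGT. Of all 32851 RefSeq windows of the same length, 17.2% held the E-box and 1.86% held ACCGGT. These are matches of letters, and no binding was measured.

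Esrp1 and Esrp2 encode RNA-binding proteins that impose epithelial splice forms on transcripts such as that of Fgfr2. Esrp1 (chromosome 4, 11259185 to 11313930) had 5.76, 0.617 and 0.560 FPKM in libraries 1, 2 and 3, and the control had 6.36. Here libraries 2 and 3 were alike and both low, with 9.70% and 8.80% of the control level left. Library 3 was the lowest, unlike for Cdh1, Epcam and the keratins, but the intervals of libraries 2 and 3 (4.36% to 21.6% and 3.87% to 20.01%) overlapped almost fully.

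Esrp2 (chromosome 8, 108655083 to 108660874) had 1.98, 1.24 and 1.41 FPKM in libraries 1, 2 and 3, and the control had 2.73. All 3 knockdown libraries were below the control, which among the 10 genes also held for Esrp1, and the level left was 56.4% ± 14.3 (SD, n = 3). It was marked in no table. The intervals, 19.0% to 108% in library 2 and 22.3% to 119% in library 3, included no change as well as a fall to less than 23% of the control. Esrp1 per Esrp2 was 2.33 in the control and 2.91 in library 1, but 0.498 and 0.398 in libraries 2 and 3. By these point values the more abundant paralog in the control was the less abundant in those libraries. Both were at 1.41 FPKM or less there, with wide intervals, and the difference between the paralogs was not tested.

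Grhl2, a Grainyhead-family factor that activates Cdh1 and other junction genes, lies on chromosome 15 from 37162791 to 37293321. It had 3.09, 0.140 and 0.466 FPKM in libraries 1, 2 and 3, and the control had 2.88. Library 1 matched the control within its interval of 80.0% to 145%, and 4.87% and 16.2% of the level were left in libraries 2 and 3. Ovol2, a zinc finger repressor of mesenchymal genes (chromosome 2, 144130912 to 144157816), had 0.525, 0.117 and 0.277 FPKM against 0.395 in the control. Ovol2 was the lowest of the 10 genes in every library, and Cuffdiff had too few fragments to test it in libraries 2 and 3. A change of this gene was not detectable at this depth: the interval in library 2 ran from 2.79% to 313%.

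**Figure D3:**
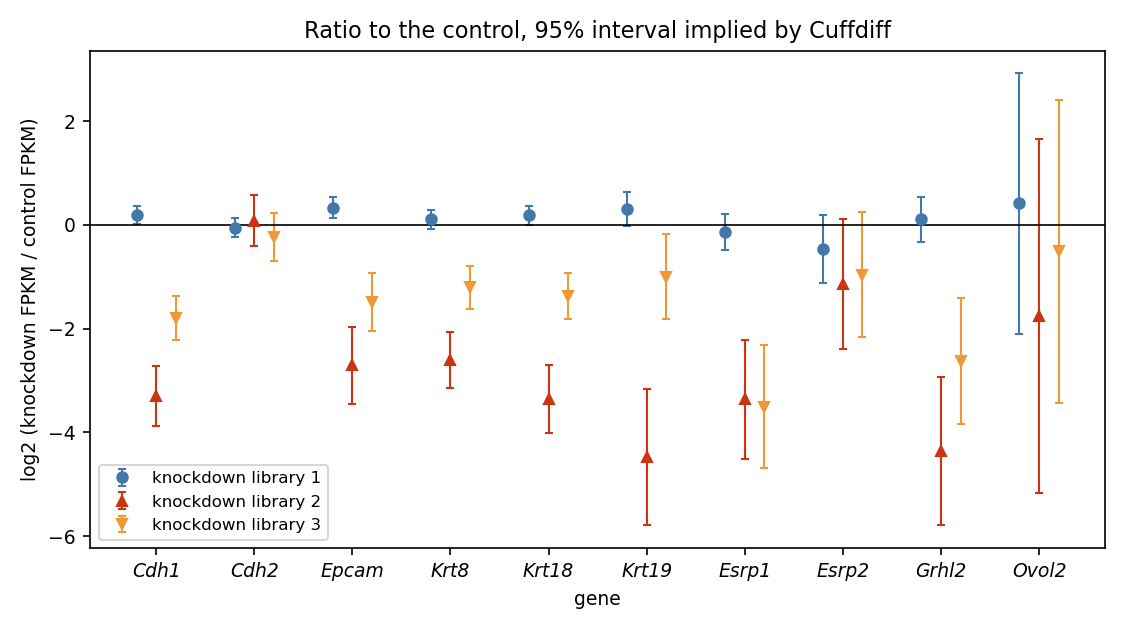
Log2 ratio of knockdown to control FPKM for each gene and each knockdown library, with the 95% interval implied by the deposited Cuffdiff statistic. The intervals of Cdh1, Epcam, Krt8, Krt18, Krt19, Esrp1 and Grhl2 lie below 0 in libraries 2 and 3, those of Cdh2, Esrp2 and Ovol2 include 0 in all 3 libraries.

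Library 2 was the lowest of the 4 libraries for 8 of the 10 genes, against 22.9% of the tested features. Cdh2 and Esrp1 were lowest in library 3. In library 1, 7 of the 10 genes were above the control and 3 were below. The error modelled by Cuffdiff differed between the tables. Over the 9 tested genes, the median standard error of the log2 ratio was 0.10, 0.38 and 0.29 in libraries 1, 2 and 3. It was smallest for library 1, the library nearest to the control over all features, which had no mark among these genes. Library 2, the most deeply sequenced at 1.15 times the control, had the largest. The order of the libraries was not that of the Gmnn level, since Gmnn was about as low in library 1, where Cdh1 was at 114%, as in library 3, where Cdh1 was at 28.8%. Library 2, with the lowest Cdh1 (10.2%), kept the most Gmnn of the 3.

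Over the 9 genes with a test in every table, the log2(FPKM + 1) ratios had medians of 0.10 in library 1, -2.55 in library 2 and -1.36 in library 3. The medians were -0.02, 0.03 and 0.01 over all tested features. Across all 3 libraries, limma called 0 of the 9 genes, also with 0 at an unadjusted p under 0.05, and their adjusted p was 0.999 throughout. Over all features limma called 12 lower (0.1%) and 3 higher (0.0251%), all of them short RNA features. With library 1 beside the control, the spread among the knockdown libraries was of similar size to their mean difference from it. The standard error of the log2 change was 1.48 for Krt19, 1.33 for Krt18, 1.12 for Epcam and 1.03 for Krt8, against changes of -1.37, -1.49, -1.22 and -1.21.

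Without library 1 the count of genes that fell was 6. A 2-fold rule in place of the marks, which 1.1% of tested features met in the lower direction, gave 6 as well. Leaving out library 2 or library 3 gave 0, because both remaining tables then had to mark a gene and library 1 marked none. In limma without library 1, the log2 changes were larger, at -2.43 for Cdh1, -1.99 for Epcam, -1.87 for Krt8, -2.32 for Krt18, -2.20 for Krt19, -2.21 for Esrp1 and -1.58 for Grhl2, and none of the 9 genes was called (adjusted p = 0.229 to 0.893).

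Few other components of adherens junctions were called. Of 15 measured cadherins, catenins and nectins, Cdh11 and Pvrl3 rose, 0 fell and 13 were not called. Cdh11, a cadherin of mesenchymal cells, had 16.5, 41.8 and 31.1 FPKM in libraries 1, 2 and 3, and the control had 17.3. Pvrl3, which encodes the adhesion molecule nectin-3, had 45.7, 75.0 and 75.6 against 42.5. Both were near the control in library 1 and higher in the other two.

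The catenins that anchor both cadherins were abundant. Ctnnb1, encoding beta-catenin, had 382, 419 and 390 FPKM against 409, and Ctnna1, encoding alpha-catenin, had 197, 177 and 192 against 180. Ctnnd1, encoding p120-catenin, had 80.3, 58.0 and 71.6 against 79.0 and was marked lower in library 2 only. Over the 14 tested members of the list the log2 medians were -0.07, -0.07 and 0.02.

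Some further epithelial genes fell. Of 14 measured keratin and desmosome genes, Krt7, Ppl and Dsc2 fell, 0 rose and 11 were not called. Of the 14, 9 were testable in at least 2 tables. Over the 7 members tested in limma the log2 medians were 0.17, -1.08 and -1.10 in libraries 1, 2 and 3. Krt7, a type II keratin of simple epithelia, had 11.2, 0.385 and 2.28 FPKM in libraries 1, 2 and 3, and the control had 10.4. Ppl, which encodes the desmosomal linker periplakin, had 5.28, 0.262 and 0.571 against 4.57, and Dsc2, a desmosomal cadherin, had 4.64, 2.05 and 2.02 against 5.46. Dsp, encoding desmoplakin, was singled out after its values were seen: it was marked higher in library 1 (35.6 FPKM against 28.1) and lower in libraries 2 and 3 (5.86 and 10.9), so it was not called, and without library 1 it made the count of falls 4.

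Of 13 epithelial surface and trafficking genes, Prss8 and St14 fell, 0 rose and 11 were not called. Over the 10 tested members of the list the log2 medians were -0.06, -0.97 and -0.74 in libraries 1, 2 and 3. Among those not called, Ap1m2, Spint1, Lsr and Cdcp1 were marked lower in library 2 only, and Cd9 was marked higher in library 3 only. Prss8 and St14 encode membrane-bound serine proteases of epithelia. Prss8, at 8.74 FPKM in the control, had 7.62, 0.647 and 2.07 in knockdown libraries 1 to 3, and St14 had 7.45, 1.22 and 3.14 against 7.53. In both, library 2 was the lowest and library 3 next.

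Among 10 further epithelial transcription factors none was called. Klf5, Klf4 and Elf3 had the highest means over the 4 libraries and were above the control in library 3. Klf5 had 20.1, 25.3 and 55.6 FPKM against 19.3, and Klf4 had 5.27, 9.05 and 14.1 against 5.02, each marked higher in library 3 alone. Elf3 had 2.94, 3.31 and 6.34 against 2.60 and was marked in no table. Klf4 and Klf5 also act in pluripotent cells. A pair of others, singled out after their values were seen, lay below the control in libraries 2 and 3. Tcfap2c, encoding AP-2 gamma, had 2.75, 1.27 and 3.58 FPKM against 5.08 and was marked lower in library 2 only, and Grhl3, a relative of Grhl2, had 2.55, 0.567 and 0.796 against 2.26 with no mark.

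Of 9 mesenchymal transcription factors none was called. Zeb1, a repressor of Cdh1 and a target of repression by Ovol2, had 15.9, 28.2 and 24.1 FPKM in libraries 1, 2 and 3 against 15.1 and was marked higher in library 2 only. Its relative Zeb2 had 19.3, 13.8 and 12.2 against 18.7 and had no mark, and Tcf4 had 34.8, 37.7 and 32.1 where the control had 34.5. This list's ratios had log2 medians of -0.07, -0.26 and 0.30. Of 8 mesenchymal filament and matrix genes, Vim alone was called. Vim, encoding the intermediate filament vimentin of mesenchymal and neural precursor cells, rose, with 376, 1005 and 958 FPKM against 388.

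**Figure D4:**
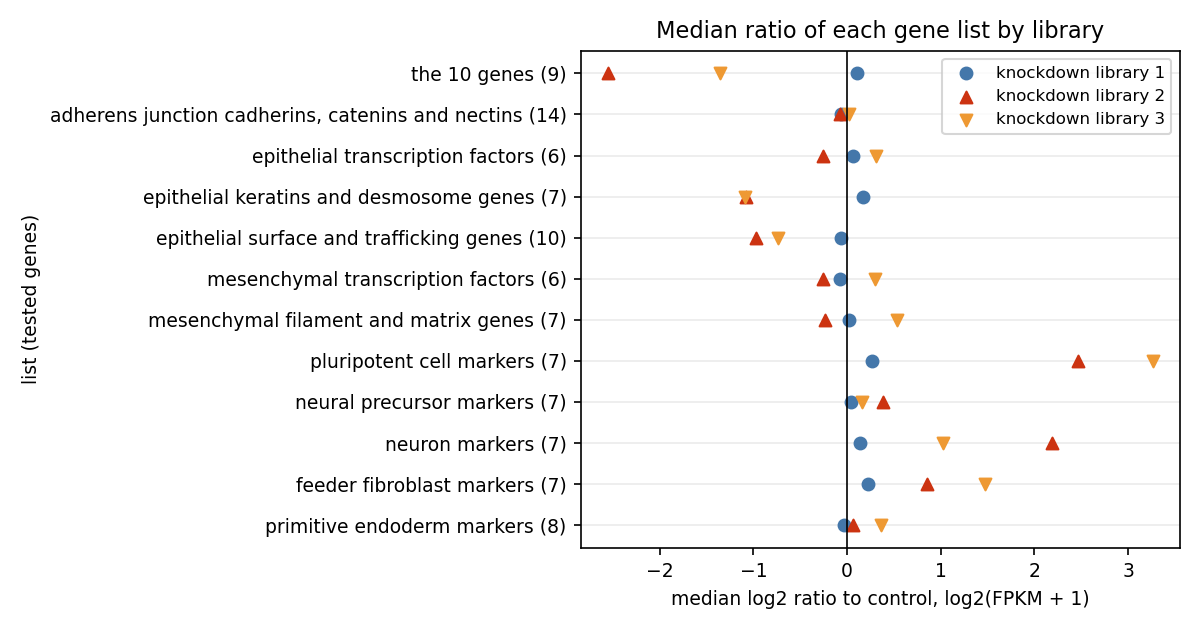
Median log2(FPKM + 1) ratio to the control of each gene list with at least 5 tested genes, by knockdown library; the number of tested genes stands in brackets. The 10 genes are the lowest of the lists in libraries 2 and 3 (-2.55 and -1.36), and pluripotent cell markers are the highest (2.47 and 3.26).

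The features whose 3 ratios were nearest to those of Cdh1 were searched among 9284 others with a control level of at least 5 FPKM. In order of Euclidean distance over the 3 tables they were Krt7 (0.13), Cntnap2 (0.44), Thsd4 (0.45), Fgfbp1 (0.51) and Wnt8a (0.54). Only 3 of the 9284 lay within 0.5 of Cdh1, whereas 64.7% lay within 0.5 of Cdh2. For Cdh2 the nearest were Zmat5, Zfp251, Pfdn2, Vps53 and Prpf19, at distances of 0.02 to 0.04. The tables share their control, so the 3 ratios of a gene are not independent.

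Markers of other cell types moved in the same libraries, and their part in the fall of the epithelial genes was not tested. Neural precursor markers, Sox1, Sox2, Pax6 and Nes among them, were present at a summed 478 FPKM in the control and 491 to 614 in the knockdown libraries. Of these 7 markers 0 were called, and their log2 medians were 0.04, 0.39 and 0.16 in libraries 1, 2 and 3. Not all went with the sum. Sox1 had 63.8, 42.5 and 48.8 FPKM in libraries 1, 2 and 3 against 64.0 with no mark, and Hes5 was marked lower in library 1 only. Of 8 pluripotent cell markers, a cell type that itself carries Cdh1 and Epcam, 7 rose, with a summed 48.9 FPKM in the control and 68.7, 315 and 515 in libraries 1, 2 and 3. Of 8 measured neuron markers 5 rose, with sums of 148 in the control and 158, 573 and 290 in the same order. Stmn2, singled out after its values were seen, went the other way in libraries 2 and 3. It had 75.4, 44.6 and 40.5 FPKM in libraries 1, 2 and 3 against 66.9 and was marked lower in library 3 only. Of 10 feeder fibroblast markers 3 rose, with sums of 27.1 against 31.3, 49.4 and 79.7.

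Markers of trophoblast, surface ectoderm, primitive endoderm and mesoderm gave few calls. Usable tests in at least 2 tables existed for 4 of 9, 3 of 8, 8 of 10 and 4 of 8 of them, in that order. The rest could not be called. Of 9 trophoblast markers 1 fell, Krt7, and the sum was 18.4 FPKM in the control and 17.2, 3.24 and 8.69 in libraries 1, 2 and 3. Krt7 made up most of it in the control and in library 1, and the defining factors Cdx2 and Elf5 had at most 0.137 FPKM in any library. Of 8 surface ectoderm markers 0 were called, with sums of 22.1 against 26.2, 9.14 and 21.5. Among them Krt5 and Krt14 had at most 0.103 FPKM, and Krt14 was listed at 0 in the control. Perp made up most of the sum in the control, at 18.5 FPKM. It had 22.6, 6.97 and 16.5 in libraries 1, 2 and 3 and was marked lower in library 2 only. Of 10 primitive endoderm markers 0 were called, with sums of 294 against 280, 309 and 412. Afp was listed at 0 in all 4 libraries, but others were present. Lama1 had 166, 192 and 268 FPKM in libraries 1, 2 and 3 against 179. It was marked lower in library 1 and higher in library 3. Dab2 had 34.0, 34.1 and 36.9 against 32.8 with no mark. Of 8 mesoderm markers 1 rose, Tcf15, with sums of 3.47 against 3.84, 10.3 and 14.6, and Mesp1 was listed at 0 throughout. Every list call, higher or lower, needed the marks of both library 2 and library 3, and leaving out either left 0 calls in each of these lists.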

How the data were processed

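The submitters' processing notes name TopHat, Cufflinks, Cuffdiff and the build mm9. For their versions and for the annotation, nothing is given in the sources used here. The deposited tables hold, per the file headers, FPKM of 1 knockdown library and of the shared control, a Cuffdiff p-value, and a q-value and log ratio, treated as a score because the deposited q-value passes 1 in places. A mark of significance is the authors' own. Locus starts were read as counted from 0 and raised by 1, since feature lengths then equalled RefSeq lengths for 5139 of 19056 features, against 995 otherwise.

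Counts were not used here. Fragment depth relative to the control was read from 1258 to 1466 low features per table whose ratios step in whole reads (78.9% to 82.9% within 0.2%). Intervals on single-library ratios came from the log ratio divided by the Cuffdiff statistic.

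The test was limma 3.58.1 in R 4.3.3, on the log2(FPKM + 1) scale and with a prior variance that follows the mean, over 11968 features with status OK in all 3 tables and a mean of at least 1 FPKM, each knockdown value placed on its own table's control, with Benjamini-Hochberg adjustment and a threshold of 0.05. It has 2 residual degrees of freedom and takes the single control to be as variable as the knockdown libraries. An exact permutation of 3 against 1 was not run, since it cannot reach that threshold. Changes on this scale are understated for genes of low level. The fit was tested on simulated data. No pair of libraries held equal values beyond 0.869% of features. P-values measure the spread between these libraries.

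The genes and lists were chosen with earlier results of these data known. All 10 genes are named. From each list the rule takes the called members with the largest mean change (at most 4), or failing any the 2 highest in level, and in 3 lists also the 3 most abundant. Of the genes taken by the rule, 1 is not reported here and was left out of its list. Cell type markers are given as sums and counts. Older symbols were matched through RefSeq synonyms, and 1 listed neuron marker stayed unmatched. Alternatives were other numbers of marks, a 2-fold rule, a pseudocount of 0.1, no filter on level, centring, and leaving out each knockdown library. Leaving out libraries for the lists was added after seeing the data.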

Additional observations from a re-analysis of the deposited data

How the results depend on the processing

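The count of 6 genes that fell was 7 with a mark in at least 1 table and 6 by a 2-fold rule, under which 1.1% of tested features were lower. It was 0 with marks in all 3 tables, and 0 to 6 with a knockdown library left out, 0 without library 2 or library 3. Over all features 131 fell and 286 rose. These counts were 510 and 758 with a mark in at least 1 table, and 14 and 3 with marks in all 3. With a knockdown library left out they ranged from 22 to 120 and from 12 to 272. The 12 features that limma called lower became 6 with a pseudocount of 0.1, 4 with no filter on the level and 5 to 24 with a library left out. The 3 called higher became 0 with no filter and 1 to 4 with a library left out. Of 54 limma values for the 9 genes under 6 alternatives, 53 kept direction and side of the threshold. None of the 9 was called to begin with, so keeping that side says little. The sizes moved widely over the alternatives. The log2 change ranged from -2.43 to -0.78 for Cdh1, from -2.32 to -0.59 for Krt18 and from -2.20 to -0.32 for Krt19. Cdh2 reversed without library 3, from -0.07 to 0.0132, and ranged from -0.15 to 0.0132 with a library left out. With 1 control library a spread between controls cannot be had, and the depth limits Ovol2 most. No paired analysis was possible because the knockdown libraries share 1 control and so have fewer than 2 replicate numbers in common with it.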
